A study of Mus musculus with 4 samples.

Results

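The immune cells of infarcted and sham-operated hearts were compared in mice that carry a heterozygous deletion of PD1. PD1, encoded by Pdcd1, is an inhibitory receptor of activated lymphocytes. Its ligands PD-L1 and PD-L2 are encoded by Cd274 and Pdcd1lg2. Both groups were of the C57BL/6 strain and of the genotype labelled PD1 Het, so the controls carry the deletion too, and the wild type was not analysed here. Surgery was on postnatal day 2, either myocardial infarction (MI) or a sham operation, and hearts were taken 7 days later. Live cells positive for CD45, a surface protein of blood-derived cells, were sorted from digested hearts without atria and profiled by 3' single-cell RNA sequencing. Each group is 1 library, and how many animals were pooled in it is not given in the sources used here. Macrophages of both libraries held Y-linked RNA (139 CPM in MI, 88.6 in sham) and Xist RNA (248 and 312 CPM), so both held cells of both sexes. The library of KO mice after MI, set beside them below, held 0 Y-linked CPM and 1129 CPM of Xist in macrophages, against 100.1 and 433 in KO sham. It thus had no sign of male cells, and in the KO pair sex and operation cannot be told apart.

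Barcodes with at least 500 UMIs (unique molecular identifiers, counted RNA molecules), at least 200 genes and at most 10% mitochondrial UMIs were taken as cells. This kept 5074 cells of the MI library and 5376 of the sham library, 10450 of the 23961 cells that pass these limits over all 4 libraries of the study. The other 2 libraries are from mice labelled KO, with the homozygous deletion, and their values are given beside those of the heterozygous mice where a reader would want to know whether the same pair of operations gave the same value. The sham library stood apart in quality, with 30.4% of its 7745 barcodes over the mitochondrial limit against 17.5% of 6157 in the MI library. Median depth was 6559.5 UMIs per kept cell in sham and 8632 in MI. The libraries shared 7 barcodes, of which 5 were kept in both.

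After an infarct, monocytes enter the heart and become macrophages, which join the macrophages already resident there. Macrophages clear dead cells, signal to neutrophils through chemokines and remodel the matrix. In newborn mice the heart can still regrow muscle, and resident macrophages divide in place. Lymphocytes are fewer and regulate these myeloid cells, in part through PD1.

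Cells were assigned to lineages by fixed marker genes, for example C1qa, C1qb, C1qc, Adgre1 and Fcgr1 for macrophages, and a droplet positive for markers of 2 lineage families was left out as mixed. The 6 further macrophage markers that were checked were each higher in the macrophage gate than in the other cells of both libraries, as were the 6 of neutrophils and the 5 each of classical and non-classical monocytes, B cells, T cells and NK cells. For type 2 innate lymphoid cells 5 of 5 were higher in MI and 4 of 5 in sham, where Il17rb had 0 CPM. For migratory dendritic cells 5 of 5 were higher in MI, but the 2 sham cells were too few to check. T cells with at least 3 UMIs of Rag1, Rag2, Dntt, Ptcra and Arpp21, genes of developing thymocytes, were set apart as thymocyte-like. A gate built on Cd209a and Mgl2 for type 2 dendritic cells missed its markers in sham (2 of 5 higher) and stayed unnamed. Mixed droplets made up 12.4% of kept cells in MI and 13.3% in sham, and droplets with no gate 5.46% and 6.34%. Macrophage-positive droplets were left out unequally. For T, NK or type 2 innate lymphoid markers 4.64% of them were left out in MI and 9.56% in sham. For cardiomyocyte markers the shares were 4.68% and 8.71%, and for B cell markers 2.73% and 1.70%.

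Macrophages took the larger share after infarction and monocytes the smaller. Macrophages made up 55.8% of gated immune cells in MI (2241 of 4015, exact 95% interval 54.3 to 57.4) and 33.9% in sham (1434 of 4234, 32.4 to 35.3), a ratio of 1.65 [1.57 to 1.73]. With mixed droplets kept in, the macrophage ratio was 1.54. All intervals here cover counting error only, and with 1 library a group no difference was tested. Non-classical monocytes, which patrol vessels, were 4.43% in MI and 14.2% in sham, 3.20-fold lower [2.72 to 3.76]. Classical monocytes, the precursors of recruited macrophages, were 6.43% and 10.1%, 1.58-fold lower [1.36 to 1.83]. Neutrophils, the first cells to enter an infarct, were 4.56% and 4.91%, a ratio of 0.928 [0.764 to 1.13] whose interval includes 1. In the KO pair of libraries the macrophage ratio was 1.14, the non-classical ratio 0.434 and the classical ratio 1.54. The classical monocytes thus lay on opposite sides of 1 in the heterozygous and the KO pair.

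Among lymphocytes, thymocyte-like T cells differed most. They were 2.17% of gated immune cells in MI (87 cells) and 7.65% in sham (324 cells), 3.53-fold lower [2.80 to 4.46], while the KO ratio was 5.23. RNA of the T cell gate genes was also lower in MI in cells of some other lineages, in CPM (UMIs per 1000000 UMIs of the lineage). It stood at 26.3 in MI against 164 in sham in B cells, 31.3 against 174 in non-classical monocytes and 96.2 against 320 in neutrophils. In macrophages it stood at 122 against 178, and in classical monocytes it was near level at 101 against 109. How the share of thymocyte-like T cells relates to this RNA was not tested. B cells were 17.9% and 21.8%, a ratio of 0.824 [0.755 to 0.899], or 0.966 with a mitochondrial limit of 5%. T cells outside the thymocyte-like gate, called other T cells here, were 4.16% and 5.53%, a ratio of 0.753 [0.620 to 0.914]. Small populations of innate lymphocytes and dendritic cells were larger in MI. NK cells were 55 cells against 23, a share ratio of 2.52 [1.55 to 4.09]. Type 2 innate lymphoid cells were 28 against 9 (3.28 [1.55 to 6.94]). Type 1 conventional dendritic cells, which cross-present antigen, were 58 against 32 (1.91 [1.24 to 2.94], KO 0.601). Migratory dendritic cells with Ccr7 and Fscn1 were 18 against 2 (9.49 [2.20 to 40.9]). A gain in one share lowers the others, and a smaller share cannot be told apart from more cells of another lineage.

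**Figure D1:**
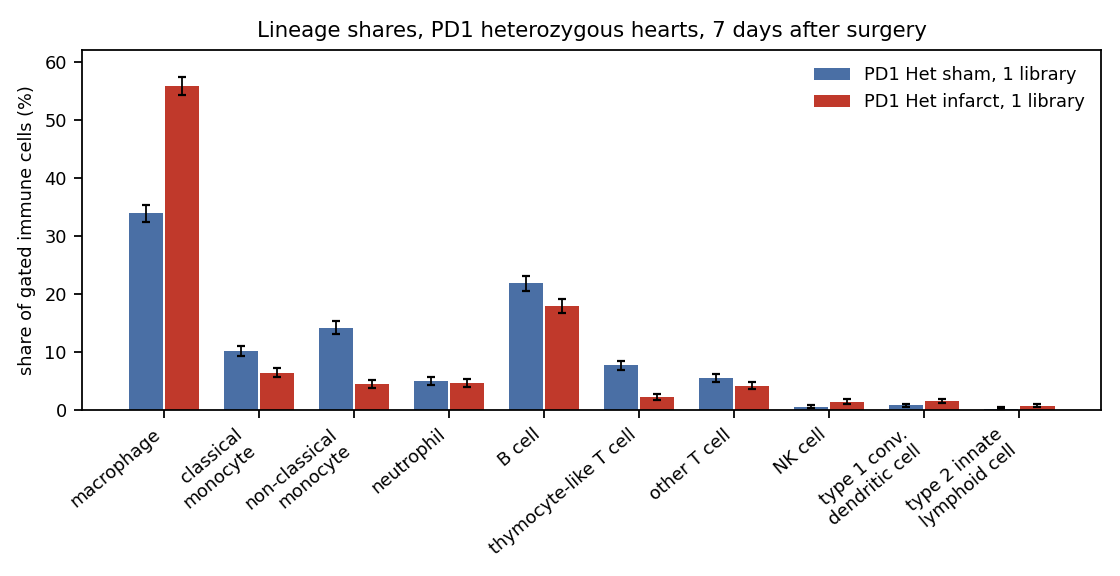
Share of gated immune cells (%) for 10 lineages in the sham library (blue) and the MI library (red), 1 library each, with bars as shares and whiskers as exact 95% Clopper-Pearson intervals. Macrophages stand at 33.9% in sham and 55.8% in MI, and non-classical monocytes at 14.2% and 4.43%.

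Macrophage RNA was compared as UMIs summed over all macrophages of a library, in CPM. A gene counts as higher or lower below only where the exact 95% interval of its ratio lay wholly beyond 1.5-fold, among genes with at least 30 UMIs over both libraries. That interval takes each UMI as independent and leaves out the spread between cells. It is thus too narrow where few cells hold most UMIs of a gene. Of 12821 measured genes, 304 (2.37%) were higher and 129 (1.01%) lower in MI, and the median log2 ratio of all genes was −0.08. With TMM scaling, which moves that centre to 0, the counts were 387 higher and 84 lower, and with median-of-ratios scaling 391 and 83. Of the 304 higher genes 65 were in the 11 lists of lipid-associated, matrix, suppressive, growth factor, chemokine, cytokine, immediate early and class II genes described below, and 183 in none of the 56 lists. Of the 129 lower genes 21 were in the 3 lists of cell cycle genes (mitosis, DNA synthesis and histones) and 98 in no list. The share of all measured genes in these lists was not counted, so no excess can be read from these numbers. Of the 304 higher genes, 285 were lowest in the heterozygous sham library among all 4 libraries. In the KO pair 101 of the 304 were also higher and 4 were lower. Of the 129 lower genes, 120 were highest in the heterozygous sham library, and 19 were also lower in the KO pair, where 25 were higher. Because these genes were picked by their level in heterozygous sham against MI, such extremes are in part built into the call. The same count over all measured genes was not made. The KO pair itself had 444 of 13303 genes (3.34%) higher and 78 (0.586%) lower.

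**Figure D2:**
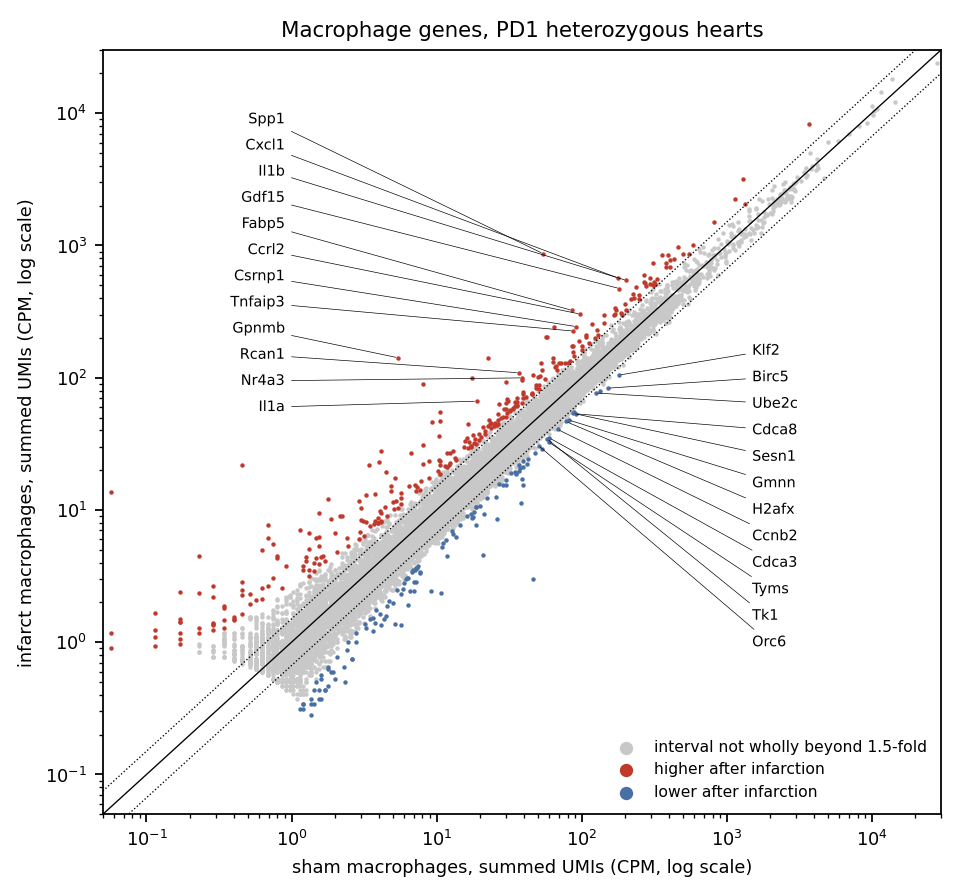
Each point is 1 gene in macrophages, with sham CPM on the x axis and MI CPM on the y axis (log scales), the solid line marks equal levels and the dotted lines 1.5-fold. Red and blue points have intervals wholly beyond 1.5-fold and the 24 named genes are labelled, with Spp1 and Gpnmb farthest above the line. Genes at 0 in 1 library are not drawn.

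The genes of the lipid-associated macrophage programme mark a state of phagocytes that take up lipid and debris, and Gpnmb, Spp1 and Fabp5 of that list were highest among the genes passing the naming rule (at least 50 CPM in the higher library and further limits). Gpnmb (ENSMUSG00000029816), a transmembrane glycoprotein of such phagocytes, stood at 142 CPM in MI and 5.43 in sham, a log2 ratio of 4.70 [4.41 to 5.01]. Spp1 (ENSMUSG00000029304), which encodes the secreted matrix protein osteopontin, stood at 867 and 54.4 CPM, a log2 ratio of 4.00 [3.90 to 4.09]. Fabp5, a fatty acid carrier, stood at 323 and 85.7 CPM (1.92). All 3 were also higher in the KO pair, where KO MI and KO sham held 124 and 7.25 CPM of Gpnmb, 1095 and 52.7 of Spp1, and 381 and 91.3 of Fabp5. Over the programme, 6 of 18 measured genes were higher and 0 lower, with a median log2 ratio of 0.45 against −0.08 for all genes. Lgals3, which encodes galectin-3, was the further abundant member that was higher, at 732 and 382 CPM (0.94). The iron store genes Fth1 (10323 and 10375 CPM) and Ftl1 (−0.02), the lysosomal Ctsd (1238 and 938 CPM) and Cd63 (638 and 597 CPM) lay within 1.5-fold, and Lgals1 was the lowest member (−0.49).

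Spp1 and Gpnmb RNA sat in few macrophages. At least 1 Spp1 UMI was found in 33.7% of MI macrophages and 13.9% of sham macrophages, and with every cell thinned to 2000 UMIs in 16.8% and 4.89% (47 and 124 shallower cells left out). In B cells, which should lack the gene, the unthinned shares were 6.53% (47 of 720) and 0.108% (1 of 922), at median depths of 4015 and 3795.5 UMIs against 11206 and 10903.5 in macrophages. The 10% of MI macrophages with most of it held 94.7% of the Spp1 UMIs and 97.7% of the Gpnmb UMIs. Gpnmb UMIs were found in 14.6% of MI macrophages (328 cells) and 3.35% of sham macrophages (48 cells).

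Other genes of matrix handling and suppressive activation were higher with them. Fn1, which encodes fibronectin, stood at 140.3 CPM in MI and 22.6 in sham (2.63), and at 329 and 36.4 in KO MI and KO sham. Of 14 measured matrix proteins 5 were higher and 0 lower, and the median was 0.09. Mmp12, a macrophage elastase, stood at 46.2 CPM in MI and 9.37 in sham (2.30 [2.07 to 2.54]), and 5 of 14 metalloproteinases and inhibitors were higher with a median of 0.61. Arg1, which encodes the urea cycle enzyme arginase and is a marker of suppressive myeloid cells, stood at 21.8 and 0.457 CPM (5.58 [4.59 to 6.80]), and at 87.8 and 0.815 CPM in KO MI and KO sham. Ptgs2, the inducible prostaglandin synthase, stood at 98.8 and 17.5 CPM (2.50), but in the KO pair at 59.0 and 56.6. Of 14 measured genes of alternative activation and suppression 5 were higher and 0 lower, with a median of 0.48. Among growth factors 6 of 17 were higher, with a median of 0.56. Areg, an epidermal growth factor ligand, stood at 46.8 and 10.6 CPM (2.15), Hbegf at 96.3 and 39.1 (1.30) and Gdf15, a stress-induced cytokine, at 473 and 183 (1.37). Each of these 3 was near level in the KO pair, at −0.10, −0.09 and −0.08.

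The resident programme was level as a list. Its median was 0.07 over 14 measured genes, with 1 higher and 0 lower. The mannose receptor Mrc1 stood at 1226 CPM in MI and 1258 in sham (−0.04), F13a1 at 825 and 814 (0.02), the selenium carrier Selenop at 1937 and 1602 (0.27) and the growth factor Igf1 at 380.1 and 339 (0.17). Stab1 (−0.18) and Maf (−0.19) were the lowest of the 6 most abundant. Cd209f was the 1 higher member, from 3.74 and 0.915 CPM. The same list had a median of −0.43 in the KO pair, with 3 genes lower and 1 higher.

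Chemokines that attract neutrophils and the genes of the Tnf and NF-kB pathway were higher in MI macrophages. NF-kB is a transcription factor that cytokines and microbial products release from its inhibitor, and it induces both chemokines and its own inhibitors. Cxcl1 stood at 568 CPM in MI and 178 in sham (log2 1.67 [1.62 to 1.73]), Cxcl2 at 8245 and 3691 (1.16) and Cxcl3 at 13.4 and 5.66 (1.25). These 3 of 6 measured genes of the list were higher and 0 lower, with a median of 1.03, and Pf4 (3217 and 4659 CPM) and Ppbp (−0.65) were the lowest. Cxcl2 RNA was broad where Spp1 was not, with a median of 55.2 UMIs per 10000 in MI macrophages and 6.06 in sham. The share of macrophages with a Cxcl2 UMI was 90.5% and 66.9%, and after thinning 83.5% and 57.3%. In B cells those unthinned shares were 32.8% and 11.2%, so B cell droplets too held Cxcl2 UMIs more often in MI, and the source of that RNA was not tested.

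Some promoters of these genes, a minority in each list, hold a motif that NF-kB is known to bind. The motif, GGG followed by any 2 bases and TTTCC, was searched on both strands from 250 bases before to 50 bases after the RefSeq start. Counted per gene over any of its promoters, it is in 1.89% of 27025 mouse genes. Of the Tnf and NF-kB list 6 of 22 genes hold it, of the CXC list 3 of 7 and of the immediate early genes 0 of 21. The windows shown are from genes that have a match. The motif was 1 of 8 searched. Below are 30 bases around a match for the 3 chemokines and for Nfkbia and Tnfaip3, 2 inhibitors of the pathway, from RefSeq on GRCm38.p6, 5′ to 3′ on the strand of the gene, with the match in capitals (its reverse complement in Nfkbia and Tnfaip3). The positions are chr5:90891164-90891193 (plus strand) for Cxcl1, chr5:90903811-90903840 (plus) for Cxcl2, chr5:90786018-90786047 (plus) for Cxcl3, chr12:55492657-55492686 (minus) for Nfkbia and chr10:19015403-19015432 (minus) for Tnfaip3. A match is a description of the letters and not a measured binding site.
Cxcl1: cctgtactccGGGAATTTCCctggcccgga
Cxcl2: cctggtccccGGGCTTTTCCagacatcgtg
Cxcl3: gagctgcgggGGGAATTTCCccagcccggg
Nfkbia: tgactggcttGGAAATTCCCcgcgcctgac
Tnfaip3: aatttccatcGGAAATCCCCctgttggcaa

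Of the 24 measured genes of the Tnf and NF-kB list 10 were higher and 0 lower, with a median of 0.66. Tnf itself stood at 846 CPM in MI and 360.2 in sham (1.23). The inhibitor Nfkbia stood at 1506 and 825 CPM (0.87) and the deubiquitinase Tnfaip3 at 225 and 87.7 (1.36 [1.28 to 1.44]). Nfkbiz (0.92), Nfkb1 (0.86) and Rel (0.79) were higher too, Il6 was the highest member from 4.39 and 1.26 CPM (1.80), and Cyld the lowest (−0.05). Among CC chemokines 4 of 10 were higher. Ccl4 stood at 3159 and 1307 CPM (1.27) and Ccl3 at 792 and 433 (0.87). Ccl5, which lymphocytes also make, was the highest from 89.9 and 8.12 CPM (3.47), Ccl2, the main attractant of monocytes, was within 1.5-fold at 958 and 875, and Ccl12 was the lowest (−0.48).

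Interleukin-1 genes followed. Il1b stood at 545 CPM in MI and 203 in sham (1.42), Il1a at 66.5 and 18.9 (1.81) and Il1rn, the receptor antagonist, at 55.1 and 10.6 (2.38 [2.16 to 2.61]). The inflammasome sensor Nlrp3 stood at 298 and 143 (1.06), while Pycard, Casp1 and Il18 lay below 0 (−0.38, −0.36 and −0.61). So 6 of 17 measured genes of the family were higher and 0 lower, and the median was 0.10. Ccrl2 (303 and 98.0 CPM, 1.63), a decoy chemokine receptor, and Rcan1 (109 and 36.9 CPM, 1.56), a calcineurin inhibitor, were, with Csrnp1 (1.41), further genes among the 12 highest that passed the naming rule. In the KO pair the log2 ratios of Il1b and Il1a were 0.42 and −0.30. Those of Ccrl2, Rcan1 and Csrnp1 were 0.48, −0.13 and 0.08 there, and none of these genes was called in that pair.

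Immediate early genes, which respond within minutes to many stimuli including tissue digestion, were higher as well. Of 26 measured 14 were higher and 1 lower, with a median of 0.72. Egr1 stood at 840 CPM in MI and 397 in sham (1.08), Junb at 2260 and 1137 (0.99), Fos at 868 and 552 (0.65) and Nr4a3 at 99.7 and 38.8 (1.36). Jun (706 and 650 CPM), Ier3 (0.42) and Atf3 (0.52) were within 1.5-fold, and Klf2, a factor that holds macrophages quiescent, was the lower one at 105 and 182 CPM (−0.79). Genes known to be induced by enzymatic digestion had 6 of 16 higher and 0 lower, with a median of 0.43.

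The heterozygous sham library was the lowest of the 4 libraries in 21 of 24 Tnf and NF-kB genes and 22 of 26 immediate early genes. For other inflammatory lists it was the lowest less uniformly, in 4 of 6 CXC chemokines, 6 of 10 CC chemokines and 7 of 17 interleukin-1 genes, of which it was the highest in 5. How often this library was the lowest over all measured genes was not counted. Summed over the Tnf and NF-kB list, macrophages held 5092 CPM in heterozygous MI, 2861 in heterozygous sham, 4284 in KO MI and 4579 in KO sham. Cxcl1 stood at 487 CPM in KO MI and 584 in KO sham, Tnf at 617 and 817, and Cxcl2 at 7396 and 8588. In the KO pair 3 of 24 Tnf and NF-kB genes and 0 of 26 immediate early genes were higher, with medians of 0.06 and −0.12. The heterozygous sham library was also the one with 30.4% of barcodes over the mitochondrial limit, and its part in these differences was not tested. With a mitochondrial limit of 5% the log2 ratio of Cxcl1 was 1.66.

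**Figure D3:**
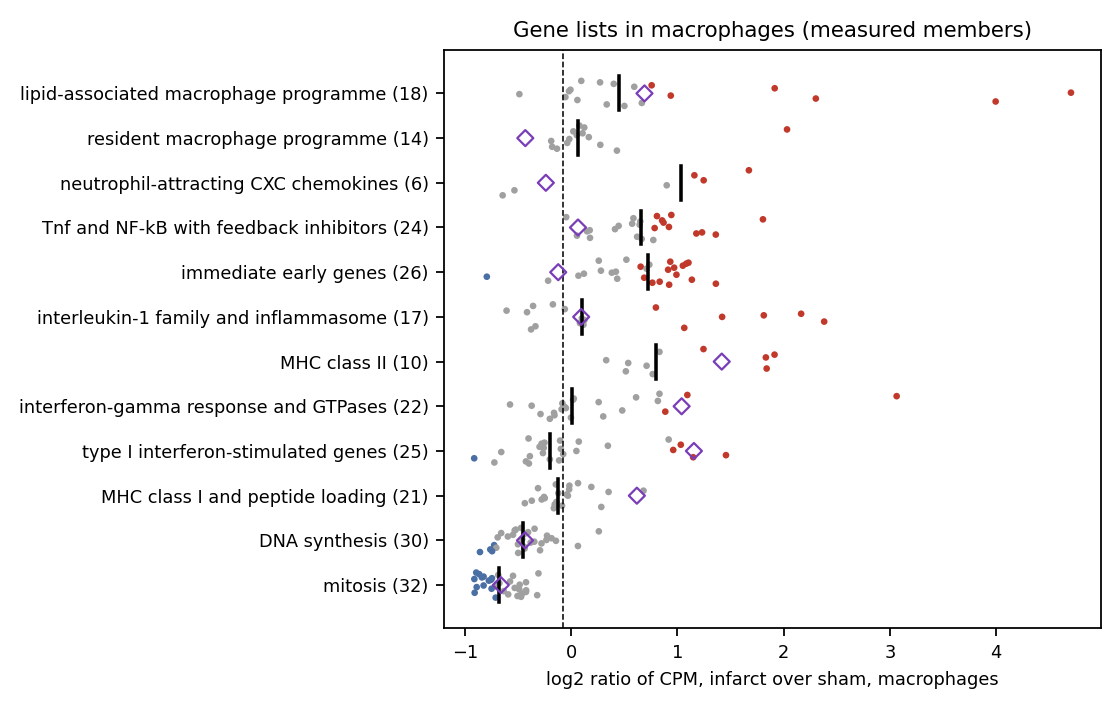
Log2 ratio of CPM in macrophages, MI over sham, for each measured member of 12 gene lists (number in brackets), with red dots higher, blue dots lower and grey dots not wholly beyond 1.5-fold. Black bars are the list medians, open purple diamonds the medians of the KO pair and the dashed line the median of all genes (−0.08). For the mitosis list bar and diamond coincide (−0.68 and −0.66), while for the immediate early genes they stand at 0.72 and −0.12.

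MHC class II genes, which present antigen to CD4 T cells, were higher in MI macrophages. H2-Aa stood at 244 CPM in MI and 64.7 in sham (1.91 [1.82 to 2.01]), H2-Eb1 at 204 and 57.1 (1.84), H2-Ab1 at 205 and 57.4 (1.83) and the invariant chain Cd74 at 734 and 309.7 (1.25). These were the 4 of 10 measured class II genes that were higher, with 0 lower and a median of 0.80, and H2-DMa was the lowest (0.33). In KO MI and KO sham H2-Aa stood at 544 and 113 CPM and Cd74 at 1505 and 473, and 7 of 10 class II genes were higher. The heterozygous sham library was the lowest of the 4 in 10 of 10, again without a count over all genes. B cell gate genes, a measure of RNA from cells rich in class II, stood at 204 CPM in MI macrophages and 142 in sham macrophages, and those of type 1 dendritic cells at 102 and 87.1 CPM. Their part in the class II values was not tested. Class II genes in B cells themselves were level, with 0 of 11 called and a median of −0.17.

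As lists, interferon genes stayed near the median of all genes in the heterozygous pair. Of 25 measured type I interferon-stimulated genes 4 were higher and 1 lower, with a median of −0.20. Isg15, a ubiquitin-like modifier, stood at 188 CPM in MI and 96.6 in sham (0.96), and Oasl1 was the highest (1.46). The abundant Ifi27l2a (−0.25), Bst2 (−0.40) and Ifi204 (−0.10) were within 1.5-fold, and Rtp4 was the lower one at 22.3 and 42.1 CPM (−0.91). The list of interferon-gamma genes had 3 of 22 higher, 0 lower and a median of 0.01. Cxcl10, a chemokine for activated T cells, stood at 979 and 459 CPM (1.09), and Irf1 was higher by 0.89. Cxcl9 stood at 1.43 and 0.171 CPM, the latter from 3 UMIs (log2 3.06 [1.43 to 5.39]). In the KO pair the medians of these lists were 1.16 and 1.04, with 15 of 25 and 13 of 22 genes higher. Class I genes and peptide loading had 0 of 21 called and a median of −0.12, against 8 higher and a median of 0.62 in the KO pair. The difference between the pairs was not tested.

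Genes of the cell cycle were lower in MI macrophages. Of 32 measured mitosis genes 14 were lower and 0 higher, with a median of −0.68, and in the KO pair the counts were the same (14 and 0, median −0.66). Birc5, a subunit of the chromosomal passenger complex, stood at 83.4 CPM in MI and 152 in sham (−0.87 [−0.94 to −0.79]). Cdca8, of the same complex, stood at 53.3 and 91.3 (−0.77), the ubiquitin-conjugating enzyme Ube2c at 76.7 and 125 (−0.71) and cyclin Ccnb2 at 40.7 and 68.3 (−0.75). Cdc20 was the lowest member (19.6 and 36.8 CPM, −0.91) and Aurkb the highest (−0.31), so every measured mitosis gene had a ratio below 0. The replication genes Tyms (−0.86), Tk1 (−0.74), Orc6 (−0.73) and Gmnn (−0.77), the mitotic Cdca3 (−0.76), the histone H2afx (−0.74) and the p53 target Sesn1 (−0.71) were among the 12 lowest of the 13 lower genes that passed the naming rule. Of 30 DNA synthesis genes 4 were lower and 0 higher, with a median of −0.45, and Pcna stood at 260.0 and 249 CPM. Of 20 replication-dependent histones 3 were lower, with a median of −0.48.

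Counted as cells, 12.8% of MI macrophages (286 cells) and 18.8% of sham macrophages (269 cells) held at least 30 UMIs per 10000 of the mitosis list, a ratio of 0.680 [0.584 to 0.793]. The KO ratio was 0.601. The share of macrophages with at least 1 UMI of Mki67, a gene of cycling cells, was 35.6% and 36.1%, or 15.3% and 17.9% after thinning, a smaller difference. Between 20 and 45 per 10000, near the limit used for dividing cells, lay 134 and 135 cells. Within dividing macrophages the list stood at 7754 and 8190 CPM, and within the rest at 538 and 698 CPM. With dividing cells left out the median of the list was −0.34 in place of −0.68.

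A motif of mitotic genes was common in these promoters. TTTGAA, the core of the cell cycle homology region bound by the DREAM complex, is in 20.2% of all genes (both strands, the same windows) and in 20 of 27 mitosis genes, but in 3 of 26 DNA synthesis genes. Windows of 30 bases are shown for 4 of the lower genes, in the same way, at chr4:118437344-118437373 (minus) for Cdc20, chr9:70421533-70421562 (minus) for Ccnb2, chr2:164769888-164769917 (plus, match on the other strand) for Ube2c and chr7:122159453-122159482 (plus) for Plk1, which was lower in other T cells (described further on).
Cdc20: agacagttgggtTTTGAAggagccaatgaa
Ccnb2: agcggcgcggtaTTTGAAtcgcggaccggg
Ube2c: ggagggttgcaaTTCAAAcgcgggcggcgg
Plk1: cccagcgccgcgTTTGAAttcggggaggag

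RNA of other lineages in macrophages differed in both directions. Neutrophil gate genes stood at 1263 CPM in MI and 948 in sham, T cell gate genes at 122 and 178, and cardiomyocyte gate genes at 54.4 and 71.2. Glycolysis (0 of 18 called, median −0.07), the nuclear-encoded respiratory chain (0 of 33, −0.12) and heat shock proteins (0 of 18, −0.07) stayed near the median of all genes.

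Classical monocytes of MI hearts carried more RNA of suppressive and macrophage genes. Of 8359 measured genes 123 (1.47%) were higher and 32 (0.383%) lower. In the KO pair 30 of the 123 were also higher and 6 lower, and 3 of the 32 were also lower and 0 higher. Arg1 stood at 88.9 CPM (214 UMIs) in MI and 0.304 (1 UMI) in sham, a log2 ratio of 8.19 [5.70 to 13.50], with 23.4% of the MI UMIs in 1 cell. Retnla, a secreted marker of alternative activation, had 44 UMIs in MI and 0 in sham, but 93.2% of them came from 1 cell. Mrc1 stood at 134 and 28.6 CPM (2.23), the syndecan Sdc4 at 84.4 and 14.0 (2.59), Ms4a7 at 95.6 and 23.4 (2.03) and Il1rn at 61.1 and 18.5 (1.72). Of 9 measured genes of alternative activation 5 were higher and 0 lower, with a median of 1.34. In 9 genes of the resident macrophage programme 5 were higher, with a median of 2.04, where macrophage gate genes themselves stood at 1052 CPM in MI monocytes and 571 in sham monocytes (medians per cell of 2.67 and 2.47 UMIs per 10000). Whether this is RNA of the monocytes or of macrophages was not tested.

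Chemokines were higher in the same monocytes. Cxcl2 stood at 1670.0 CPM in MI and 638 in sham (1.39), and Cxcl1 at 66.1 and 3.95 (4.06), with 38.4% of its MI UMIs in 1 cell. Of 5 measured CXC genes 4 were higher, with a median of 1.39. Spp1 stood at 369 and 3.65 CPM, with 50.7% of its MI UMIs in 1 cell. Lowest among the genes passing the naming rule were Hspa1b (66.9 and 273 CPM, −2.03) and Hspa1a (130.0 and 404, −1.64), inducible heat shock proteins whose near-identical sequences make each value uncertain. They were followed by the Notch target Hes1 (29.9 and 72.3, −1.27), Klf2 (74.8 and 151, −1.01) and the ion transporter Slc12a2 (−0.98). Of 12 histone genes 4 were lower, with a median of −1.35. Hist1h1b stood at 9.98 and 43.5 CPM, with 70.8% of the MI UMIs in 1 cell, and dividing cells were 1 of 258 in MI and 9 of 429 in sham.

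In non-classical monocytes 34 of 7419 measured genes (0.458%) were higher and 31 (0.418%) lower. In the KO pair 0 of the 34 were also higher and 5 were lower, and 2 of the 31 were also lower and 5 higher. Sdc4 (62.6 CPM in MI and 15.4 in sham, 2.03), Cxcl10 (111 and 41.6, 1.41), the complement receptor C3ar1 (1.39), Il1rn (80.4 and 31.4, 1.35) and the metal-binding Mt1 (1.35) were highest among the genes passing the naming rule. The higher class II genes were H2-Eb1 (49.1 and 9.08 CPM), H2-Ab1 (55.3 and 11.5) and H2-Aa (50.1 and 12.6), 3 of 6 measured, with a median of 1.45. Marco, a scavenger receptor, stood at 17.7 and 80.0 CPM (−2.17 [−2.98 to −1.46]), with 58.8% of the 17 MI UMIs in 1 cell (−3.25 without the top cell), and at 91.6 and 21.1 CPM in KO MI and KO sham. Hspa1a (157 and 610 CPM, −1.96), Hspa1b (−1.55), the cyclin Ccnd2 (37.6 and 118, −1.65) and Hes1 (81.4 and 227, −1.48) were the others lowest under the naming rule.

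Neutrophils differed in few genes. Of 3195 measured, 10 (0.313%) were higher and 39 (1.22%) lower, from a median of 2421 UMIs per cell in MI and 2345.5 in sham. In the KO pair 1 of the 10 was also higher and 1 lower, and 0 of the 39 were also lower and 10 higher. Il1rn stood at 601 CPM in MI and 206 in sham (1.54), Spp1 at 150 and 49.8 (1.59) and Tnfaip2 at 703 and 391 (0.85). The heme-degrading enzyme Hmox1 was lower at 230.4 and 613 CPM (−1.41), as were Ankrd12 (−1.59), the chemoattractant Prok2 (100.2 and 268, −1.42) and Atf3 (347 and 780.1, −1.17). Camp, an antimicrobial granule protein made by young neutrophils, stood at 1332 and 3165 CPM (−1.25 [−1.38 to −1.12]) and Lcn2 at 864 and 1537 (−0.83). Camp UMIs were found in 24 of 183 and 27 of 208 neutrophils, with 21.8% of them in 1 cell in MI and 22.7% in 1 cell in sham. With mixed droplets kept the log2 ratio of Camp turned to 0.18. Of 14 measured granule genes 3 were lower and 0 higher (median −0.24), and of 23 genes of mature and activated neutrophils 2 were lower and 0 higher (median 0.01).

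In B cells 67 of 9268 measured genes (0.723%) were higher and 42 (0.453%) lower. When only genes at 10% or more of their level in the lineage where they are highest were kept, 5 were higher and 13 lower, and no higher gene met the naming rule. The 5 lower genes that met it included a pair of heat shock genes. Hspa1a stood at 50.9 CPM in MI and 216 in sham (−2.09) and Hspa1b at 46.1 and 165 (−1.84). The ribonuclease Rnase6 (45.4 and 85.9, −0.92), the inhibitory receptor Btla (39.7 and 72.4, −0.86, but 0.27 with a mitochondrial limit of 5%) and Klf2 (109 and 183, −0.75) were the others. Genes of early B cells (0 of 12 called, median 0.15) and of mature B cells (0 of 15, −0.13) were level, among them Vpreb3 at 364 and 359 CPM and Ighd at 273 and 295. Of 8 measured resident macrophage genes 6 were higher in B cells (median 1.35), and macrophage gate genes stood at 205 and 91.3 CPM there. In the KO pair 7 of the 67 higher genes were also higher and 5 lower. Of the 42 lower genes 8 were also lower in that pair and 1 higher.

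Thymocyte-like T cells had 103 of 8622 measured genes (1.19%) higher and 43 (0.499%) lower. Highest among those passing the naming rule were Dab2 (114 CPM in MI and 28.5 in sham) and F13a1 (102 and 26.5), both genes of macrophages, then Unc93b1 (1.63), Slfn2 (132 and 46.4) and Atf3 (1.43). Macrophage gate genes stood at 640 CPM in MI and 286 in sham in these cells. Lowest under the naming rule were Exosc3 (27.6 and 73.9 CPM, −1.42, but 0.15 after thinning), Hes1 (120 and 282, −1.23), the centromere protein Cenpf (117 and 275, −1.23), Hspa1a (−1.23) and Hspa1b (−1.29). Of 32 mitosis genes 4 were lower and 0 higher, with a median of −0.55, and dividing cells were 47.1% in MI and 57.7% in sham. Genes of receptor recombination were level (0 of 10 called, median −0.20). In the KO pair, where KO sham held 38 such cells, 13 of the 103 higher genes were also higher and 6 lower. Of the 43 lower genes 2 were also lower in that pair and 8 higher.

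Other T cells showed more type 17 RNA and less mitosis RNA in MI. Of 7242 measured genes 106 (1.46%) were higher and 120 (1.66%) lower. In the KO pair 8 of the 106 were also higher and 6 lower, and 8 of the 120 were also lower and 19 higher. Type 17 and gamma-delta T cells are innate-like cells that make interleukin-17 in tissues. Of 14 measured genes of that list 9 were higher and 0 lower, with a median of 1.33. The scavenger receptor Cd163l1, a marker of such gamma-delta cells, stood at 118 CPM in MI and 34.3 in sham (1.79 [1.34 to 2.25]). The delta chain gene Trdc stood at 236 and 74.8 (1.66), Tcrg-C1 of the gamma chain at 166 and 70.3 (1.24), the type 17 factor Maf at 181 and 88.2 (1.04), Tmem176a at 151 and 52.3 (1.53) and Tmem176b at 156 and 57.9 (1.43). Il1r1, the receptor for interleukin-1, had 32 UMIs against 5 (3.27 [1.90 to 4.98]). Cells with an Il17a UMI were 12 of 167 (7.19%) in MI and 6 of 234 (2.56%) in sham, against 1 of 2241 and 0 of 1434 macrophages, while the interval of its level ratio was not wholly beyond 1.5-fold (43.1 and 28.7 CPM, log2 0.59 [0.00049 to 1.18]). In the KO pair, where 107 of 6591 genes (1.62%) were higher and 104 (1.58%) lower in other T cells, 3 genes of the list were higher and 2 lower, with a median of 0.25. Macrophage gate genes stood at 344 and 343 CPM in other T cells, but fibroblast gate genes at 60.0 in MI and 1.69 in sham, neutrophil gate genes at 31.3 and 146, and mast cell gate genes at 15.2 and 51.7. Their part in the type 17 values was not tested. Neither was the part of thymocyte-like cells that missed the limit of 3 UMIs set for their gate.

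Rora, a factor of type 17 and innate lymphocytes, stood at 291 CPM in MI and 82.1 in sham (1.83), the migration receptor Gpr183 at 138 and 39.9 (1.79) and P2ry10 at 238 and 75.9 (1.65). Ctla4, an inhibitory receptor of regulatory T cells, stood at 110.0 and 31.5 (1.80), and 2 of 8 regulatory T cell genes were higher with a median of 0.45. In the KO pair the log2 ratios of Rora, Gpr183, P2ry10 and Ctla4 were −0.06, 0.87, −0.58 and −0.31, and none was called. Foxp3, the factor of regulatory T cells, had 22 and 17 UMIs (18.6 and 9.56 CPM, 0.96 [−0.02 to 1.97]) and was not called. Of 14 cytotoxic genes 1 was lower and 0 higher (median −0.05). It was Ifng, the gene of interferon-gamma, with 19 UMIs in MI and 123 in sham (16.1 and 69.1 CPM, −2.11 [−2.89 to −1.40]). In KO MI and KO sham Ifng lay the other way, at 59.0 and 34.9 CPM (0.76), and was not called. Ccl5 (1116 and 1173 CPM), Nkg7 (−0.31) and Gzma (−0.41) were within 1.5-fold. Of 14 naive and recirculating genes 3 were lower, Klf2 among them (126 and 296 CPM, −1.23), while Tcf7 (−0.22) and Lef1 (−0.27) were not.

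Of 32 mitosis genes 19 were lower in MI other T cells and 0 higher, with a median of −1.28. Top2a stood at 145 and 361 CPM (−1.31), Mki67 at 112 and 242 (−1.12), Ube2c at 63.4 and 223 (−1.81) and Stmn1 at 433 and 891 (−1.04). Plk1 had 1 UMI in MI and 34 in sham (−4.50 [−9.84 to −1.92]), and Cenpa was the highest member (−0.09). Cenpf (26 and 202 UMIs), Knl1 (13.5 and 52.8), Hist1h1a (9.30 and 56.2) and Hspa1a (44.8 and 173) were, with Ifng, lowest among the genes passing the naming rule. With dividing cells left out Knl1 turned to 0.62, and the median of the mitosis list was −0.78. Dividing cells were 13 of 167 (7.78%) in MI and 50 of 234 (21.4%) in sham, a ratio of 0.364 [0.205 to 0.649]. The KO ratio lay on the other side of 1, at 2.36 [1.34 to 4.15], with 3 mitosis genes higher, 0 lower and a median of 0.62. Of 30 DNA synthesis genes 3 were lower here (median −0.58), whereas 7 were higher in the KO pair (median 0.89). The thymocyte-like gate asks for 3 UMIs at any depth, so shallow cells of that kind may count as other T cells. Thymocyte-like T cells were 2.17% of gated immune cells in MI, 7.65% in sham, 3.79% in KO MI and 0.725% in KO sham. Dividing cells were 18.5% of other T cells in KO MI and 7.85% in KO sham. In each pair the library with the larger thymocyte-like share thus had the larger dividing share. The part of such missed cells in the mitosis values was not tested.

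**Figure D4:**
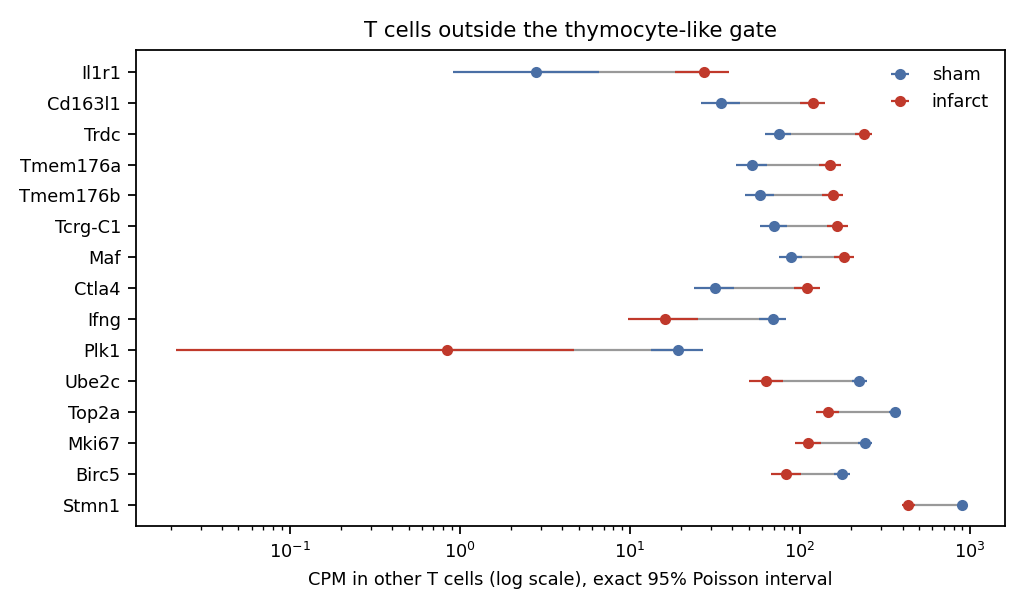
Level of 15 genes in T cells outside the thymocyte-like gate, in CPM on a log axis, with points for the sham (blue) and MI (red) library and exact 95% Poisson intervals as coloured lines. The 8 genes from Il1r1 to Ctla4 stand higher in MI and the 7 from Ifng to Stmn1 lower. Plk1 rests on 1 UMI in MI.

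PD1 and its ligands were measured in the same cells. Pdcd1 (52 UMIs in MI and 25 in sham) stood at 44.0 CPM [32.8 to 57.7] and 14.1 [9.09 to 20.7] in other T cells, a log2 ratio of 1.65 [0.93 to 2.40]. That ratio was 0.81 with a mitochondrial limit of 5% and 0.95 with the highest doublet scores removed. It was found in 16 of 167 cells (9.58%) and 14 of 234 (5.98%). B cells held 1 and 3 Pdcd1 UMIs, while macrophages held 18 UMIs in 14 of 2241 cells in MI and 0 in 1434 cells in sham, which allows a share of up to 0.209%. In KO MI and KO sham Pdcd1 stood at 73.4 and 27.5 CPM, so its 3' RNA was not lost with the homozygous deletion, and the 3' reads may lie outside the deleted part and check no genotype. Cd274 stood at 10.1 CPM in MI macrophages and 6.80 in sham macrophages (log2 0.57), at 178 and 177 in non-classical monocytes and at 24.1 and 37.1 in classical monocytes (−0.62), and no interval lay wholly beyond 1.5-fold. Pdcd1lg2 was lower in non-classical monocytes, at 5.22 CPM (5 UMIs) and 19.9 (57 UMIs), and stood at 0.810 and 0.457 CPM in macrophages.

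Some genes recurred over lineages. They were picked because they were named in more than 1 lineage, and all lineages come from the same pair of libraries. Il1rn was higher in 5 of the 5 lineages where it was measured, and so was Spp1 in 5 of 5. However, B cells, which should lack Spp1, held 196 UMIs in MI with 68.4% of them in 1 cell and 1 UMI in sham. In neutrophils of KO MI and KO sham Spp1 lay the other way, at 60.9 and 117 CPM (−0.93, not called). Il1rn stood at 10.6 and 1.66 CPM in B cells, against 601 and 206 in neutrophils, and the source of the B cell RNA was not tested. In KO MI and KO sham Il1rn stood at 225 and 209 CPM in neutrophils and at 29.8 and 31.6 in non-classical monocytes. Those log2 ratios were 0.10 and −0.09 and were not called, while in classical monocytes Il1rn was higher in the KO pair too (1.27). Sdc4 was higher in 4 of 6 lineages and lower in 0. Hspa1a and Hspa1b were lower in 5 of 7 lineages each and higher in 0, and Klf2 was lower in 5 of 7 and Hes1 in 4 of 6. Hspa1a was within 1.5-fold in macrophages (361 and 429 CPM) and neutrophils (−0.24). In the KO pair the ratio of Hspa1a was −0.90 in classical monocytes, −1.01 in non-classical monocytes and −0.96 in B cells, each smaller in size than in the heterozygous pair. Atf3 was higher in thymocyte-like T cells and lower in neutrophils.

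**Figure D5:**
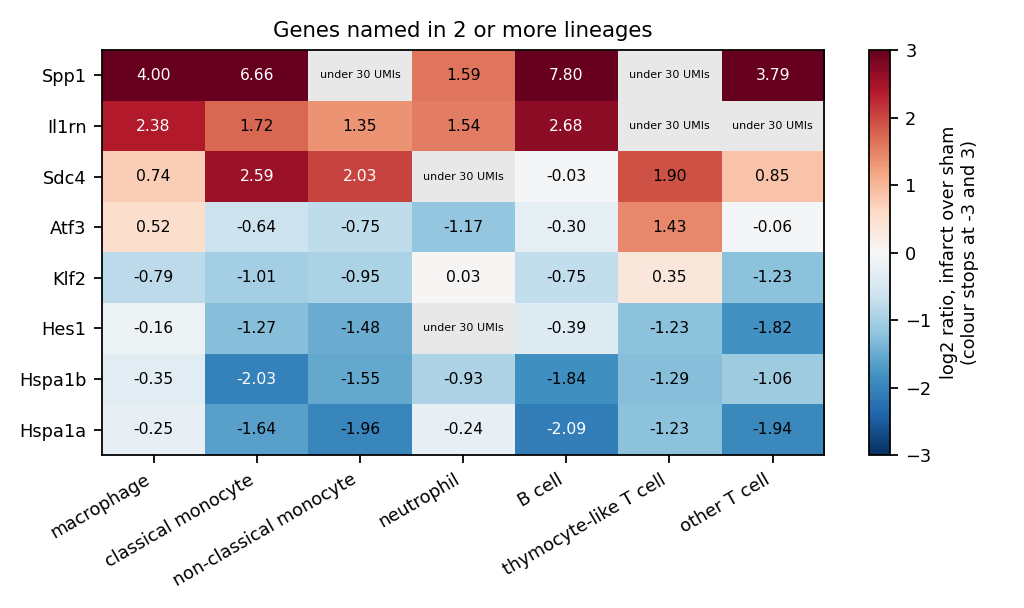
Log2 ratio of CPM, MI over sham, for 8 genes named in 2 or more lineages, with lineages in columns, red for higher in MI and blue for lower, and colour that stops at 3 on either side. The 2 heat shock genes are blue in all 7 columns and Il1rn red in each column where it reached 30 UMIs, and grey cells were not measured.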

How the data were processed

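The authors deposited raw UMI counts per gene and barcode for each library, with no normalization, and no cell type annotation was used. Per the submitters' processing notes reads went through Cell Ranger 6.1.1 and Seurat 4 with mm10 and GRCm38, whereas the matrices carry Cell Ranger 4.0.0, per the file headers. How barcodes were called as cells is not stated there. The MI and sham libraries of PD1 Het mice held 60461796 and 52701847 UMIs, so that 32091504 and 17494202 UMIs stood behind the macrophage values and 1182476 and 1779164 behind those of other T cells.

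Cells were gated on 18 marker lists. A cell was positive for a list at 20% or more of a reference level (the 90th percentile of its UMIs per 10000 over cells of all 4 libraries with at least 3 of the markers), with at least 3 UMIs and 2 markers, and took the highest score within a family of lineages. Cells positive in 2 families were left out as mixed, and no doublet caller was used otherwise (Scrublet's scores as an alternative removed 4.06% and 4.30% of cells). UMIs were summed per lineage and library as CPM. A log2 ratio carries an exact conditional binomial interval, a share an exact Clopper-Pearson interval, and a ratio of shares a log interval, all at 95%. Lineages needed 50 cells in both libraries. Gate genes were left out of the results of their own lineage. The comparison was tried on simulated counts with known folds.

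Named genes were PD1 and its ligands, the 12 highest and 12 lowest in macrophages and 5 of each in other lineages. They needed 100 UMIs in all, an interval wholly beyond 1.5-fold, 50 CPM on the higher side, at most 30% of UMIs in 1 cell and 10% or more of the level in the lineage where the gene is highest. Mitochondrial, ribosomal, haemoglobin, sex-linked, receptor segment and unnamed genes were left out. From a list described, up to 6 of the most abundant members and the highest and lowest could be named. Which lists to describe, and which promoter windows to print, was chosen after their values were seen, as were Foxp3 and Il17a, which fall outside the rule. The members, the 56 gene lists and the markers were chosen with earlier results of these data known, and the gating rule was set after seeing the data. Python 3.11.15, numpy 2.4.6, scipy 1.17.1, pandas 2.3.3, scanpy 1.11.5, matplotlib 3.10.9, R 4.3.3, edgeR 4.0.16 and DESeq2 1.42.0 (the last 2 for scaling factors only) were used.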

Additional observations from a re-analysis of the deposited data

Results flagged for a closer look

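Several values pointed one way between MI and sham in heterozygous mice and the other way in KO mice. Each of these differences between genotypes rests on 1 library a group and was not tested. The share ratio of classical monocytes was 0.634 in heterozygous and 1.54 in KO mice, that of thymocyte-like T cells 0.283 and 5.23, and that of type 1 conventional dendritic cells 1.91 and 0.601. Dividing cells among other T cells had a ratio of 0.364 in heterozygous and 2.36 in KO mice. In non-classical monocytes the log2 ratio of Cxcl10 was 1.41 and −0.998, and that of Marco −2.17 and 2.12. In other T cells Hist1h1a, a linker histone of dividing cells, had −2.60 and 2.10.

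Barcodes that failed the quality limits, which no comparison used, held RNA of cardiomyocyte genes. Their gate genes stood at 321 CPM in the failed barcodes of heterozygous MI and 219 CPM in those of sham, against 93.4 and 119 CPM in the kept cells.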

How the results depend on the processing

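No paired analysis was possible because each group holds 1 library and no replicate numbers. The depth of a lineage limits what can be called, and neutrophils had the fewest UMIs per cell. The 80 named results, each 1 gene in 1 lineage with some genes in several lineages, had 880 values under the alternatives. Of these, 875 kept the sign of the log2 ratio and 148 left the interval of the reported value without reversing a call. Called values that changed sign were Camp (0.18 with mixed droplets kept), Btla (0.27 with a mitochondrial limit of 5%), Exosc3 (0.15 after thinning to 2000 UMIs) and Knl1 (0.62 without dividing cells). The fifth value of other sign was Pdcd1lg2 in macrophages, which was not called (−0.67 after thinning). Of 60 values of share ratios 57 moved by less than their interval. The others were macrophages with mixed droplets kept (1.54), B cells at the 5% limit (0.966) and other T cells after thinning (0.616). Of 190 list medians 183 stayed in place. Those that moved were the type I interferon list after thinning (−0.34), DNA synthesis with cells weighted equally (−0.33) and mitosis without dividing cells (−0.34) in macrophages, the resident programme in classical monocytes with mixed droplets kept (2.30), and in other T cells type 17 genes with cells weighted equally (1.91) and mitosis at the 5% limit (−0.90) and without dividing cells (−0.78). The alternative that weights cells equally gives no interval and so no counts.

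Counts of genes beyond 1.5-fold moved most, in 61 of 180 values. Thinning lowered them in macrophages to 123 higher and 40 lower genes, in classical monocytes to 29 and 13, in non-classical monocytes to 20 and 15, in neutrophils to 4 and 16, in B cells to 24 and 14, in thymocyte-like T cells to 11 and 12, and in other T cells to 66 lower. Keeping only genes at 10% or more of their highest lineage, an alternative chosen after seeing the data, left 189 higher in macrophages, 52 and 20 in classical and 20 and 18 in non-classical monocytes, 21 lower in neutrophils, 5 and 13 in B cells and 39 higher in thymocyte-like T cells. With at least 1 UMI per gene there were 192 higher in classical and 52 higher in non-classical monocytes, 23 and 72 in neutrophils, 64 lower in B cells, 180 higher in thymocyte-like and 163 higher in other T cells. With at least 100 UMIs there were 67 and 21 in classical and 18 and 13 in non-classical monocytes, 3 and 22 in neutrophils, 37 and 18 in B cells, 65 and 26 in thymocyte-like and 55 and 73 in other T cells. TMM and median-of-ratios scaling gave 84 and 83 lower in macrophages. Mixed droplets kept gave 208 lower in macrophages, 69 higher in neutrophils and 166 higher in thymocyte-like T cells. The 5% limit gave 40 and 22 in B cells and 56 higher in thymocyte-like T cells. A gate threshold 1.5 times higher gave 17 and 25 in neutrophils, 190 higher in thymocyte-like and 77 lower in other T cells. Without the top cell of each gene there were 20 and 53 in non-classical monocytes and 51 and 71 in thymocyte-like T cells. Scrublet left 21 lower in classical monocytes. Without dividing cells, chosen after seeing the data for these counts and for the T cell median, there were 54 and 23 in thymocyte-like and 30 lower in other T cells. Where no cause is in the setting itself, the cause was not tested.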
